A study of Homo sapiens with 6 samples.

Results

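Genes for chemokines, interleukins, the related cytokines LIF and colony-stimulating factors, and the receptors of all of these were examined in T47D cells kept in normoxia or hypoxia. Members were chosen by symbol family, with a mean of at least 10 raw counts over the 6 libraries. The rule names no direction, but it is not neutral, since a gene could reach the minimum through its hypoxia libraries alone. Among the members, 12 had a normoxia mean under 10 counts. Of 27754 genes in the files, 131 had a matching symbol and 43 reached the minimum, namely 21 ligands and 22 receptors. The members nearest above the minimum were CCR2 (mean of 13.0 counts), CXCL8 (13.2) and CXCR2 (13.3). Nearest below it were IL17D (9.83), IL34 (8.17), CCR1 and IL31RA (7.67 each), and 33 of the 88 symbols below it had no count in any library.

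T47D is a human breast cancer cell line of luminal epithelial character, grown here as an adherent culture in RPMI medium with 10% FBS. mRNA was sequenced from 3 libraries of control cells at 20% O2 and from 3 libraries of cells placed in a chamber that the labels set to 0.5% O2 for 48 h. Both groups were the same unmodified line, so every value describes 1 line in culture. The paper describes its data in general as independent experiments and its hypoxia and normoxia samples as paired, while the labels do not say which cultures the libraries came from. If they came from 1 culture, p-values measure only the technical spread between these libraries.

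Chemokines are small secreted proteins that bind seven-transmembrane, G protein-coupled receptors and direct the migration of cells. Most interleukins instead bind receptors of several chains, which signal through JAK kinases and STAT factors or, in the interleukin-1 and interleukin-17 families, through adaptor proteins to NF-κB. LIF, interleukin-6 and interleukin-11 share the signalling chain gp130, the product of IL6ST, and in carcinomas both the tumour cells and the surrounding leukocytes and stroma can produce such factors.

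Library totals ran from 32989104 to 89883409 counts, and hypoxia replicate 3 was the deepest. The 3 counts used as the limit of a count of 0 correspond to between 0.0334 and 0.0909 CPM (counts scaled to the TMM-adjusted library total), a limit that covers counting error only. CA9, a standard hypoxia target, lay between 0.194 and 0.937 CPM in normoxia and between 21.1 and 31.5 CPM in hypoxia, in the direction of the labels. All 8 luminal epithelial markers were present. Of 12 leukocyte markers, CD2, MS4A1 and NKG7 were at 0 in all 6 libraries and PTPRC, the pan-leukocyte gene CD45, had 0 counts in each normoxia library and 4, 1 and 5 in hypoxia. The 12 markers summed to 2.97 to 3.47 CPM in normoxia and 11.4 to 13.5 CPM in hypoxia, where CD68 and ITGAM were among those higher. Fibroblast and endothelial markers summed to at most 0.930 CPM in any library. The part of these markers in the results was not tested, and in bulk RNA more cells of a type and more RNA per cell cannot be told apart. Both libraries numbered 3 stood apart for some members below, and values without them are given for several of these.

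Of the 43 members, 42 passed the expression filter of the test and CXCL3 did not. With edgeR's quasi-likelihood test and Benjamini-Hochberg adjustment over 15657 genes, 26 members (61.9%) were higher in hypoxia at an adjusted p of 0.05, 5 (11.9%) were lower and 11 did not pass. Among all genes tested, 30.4% were higher and 29.1% lower. With a change of at least 1 on the log2 scale as well, 18 members were higher and 3 lower, where all genes gave 15.2% and 4.91%. The CPM ranges of the groups did not overlap for 26 members with hypoxia above and for 6 with hypoxia below, against 34.9% and 32.4% of all genes. The median log2-fold change was 0.86 over the 42 members and 0.03 over all genes. A fit with the replicate number as a block called 27 members higher and 5 lower, against 36.6% and 35.2% of all genes.

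A gene could pass the filter through its hypoxia libraries alone, and such a gene had to differ. In normoxia 12 members, 8 ligands and 4 receptors, had a mean of fewer than 10 counts, and 8 of them were called higher. Of the 31 members at or above 10 counts in normoxia, 18 were higher and 5 lower.

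**Figure D1:**
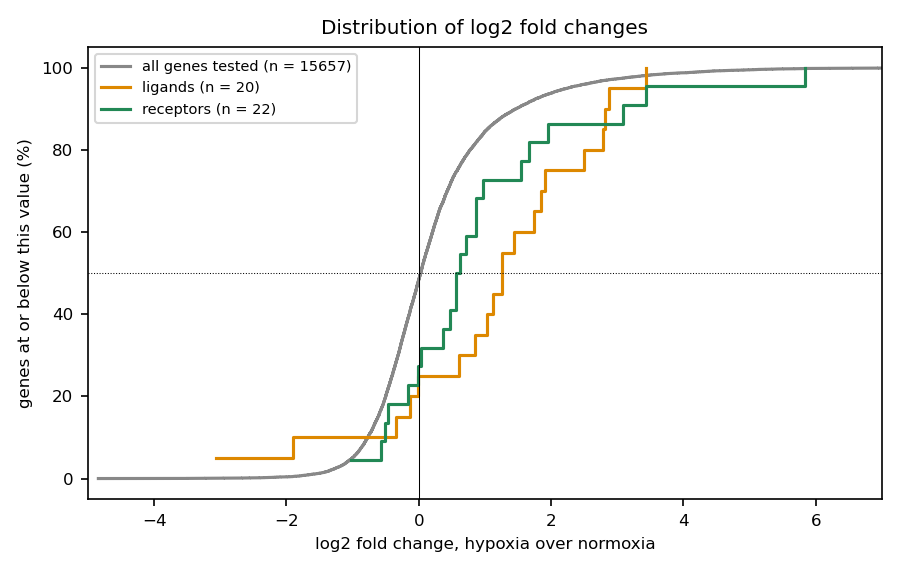
Cumulative distribution of log2-fold changes, hypoxia over normoxia (x axis), as the percentage of genes at or below each value (y axis), for all 15657 genes tested (grey), 20 ligands (orange) and 22 receptors (green). The curves cross the dotted line at the median near 0.03 for all genes, 0.59 for receptors and 1.25 for ligands.

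Ligands and receptors were then set side by side. Among 20 tested ligands 13 were higher (65%) and 2 lower (10%). Among 22 receptors 13 were higher (59.1%) and 3 lower (13.6%), against 30.4% and 29.1% of all genes. Of the called members, 12 ligands and 6 receptors rose by at least 1 on the log2 scale, where all genes gave 15.2%. Of these, CXCL1, CXCL2, CXCL8, CXCL10, IL15, CXCR4, CXCR2 and IL10RA had normoxia means under 10 counts. Their rise was therefore partly set by the filter. The median log2-fold change was 1.25 for ligands and 0.59 for receptors, a difference of 0.66 that has no test because genes are not replicates. Within libraries of the same number the difference was 0.63, 0.64 and 0.73. Over the 8 ligands and 14 receptors with a mean of at least 100 counts it was 0.41, and without hypoxia replicate 2 it was 0.43.

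Levels per transcript length were low for most members. The median RPKM (CPM per kilobase of exon) of ligands was 0.207 in normoxia and 0.726 in hypoxia, and that of receptors was 1.30 and 2.49. Ligands above 1 RPKM numbered 7 in normoxia and 8 in hypoxia, and receptors 12 and 14. Summed ligand CPM was 141.9, 153.8 and 108.9 in normoxia replicates 1 to 3 and 151.4, 167.1 and 138.6 in hypoxia. These ranges overlapped, hypoxia was higher in all 3 same-numbered pairs, and CXCL16 alone made up 50% of the normoxia sum. Summed receptor CPM was 782.2, 791.9 and 575.6 in normoxia and 849.4, 840.2 and 628.8 in hypoxia. The receptor ranges overlapped too, with hypoxia higher in each same-numbered pair, and IL6ST held 71.3% of the normoxia sum. Without IL6ST the receptor sum was 208.5, 211.6 and 196.1 in normoxia and 266.7, 262.6 and 274.0 in hypoxia. Every hypoxia library was then above every normoxia library, but no gene was taken out of the ligand sum.

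**Figure D2:**
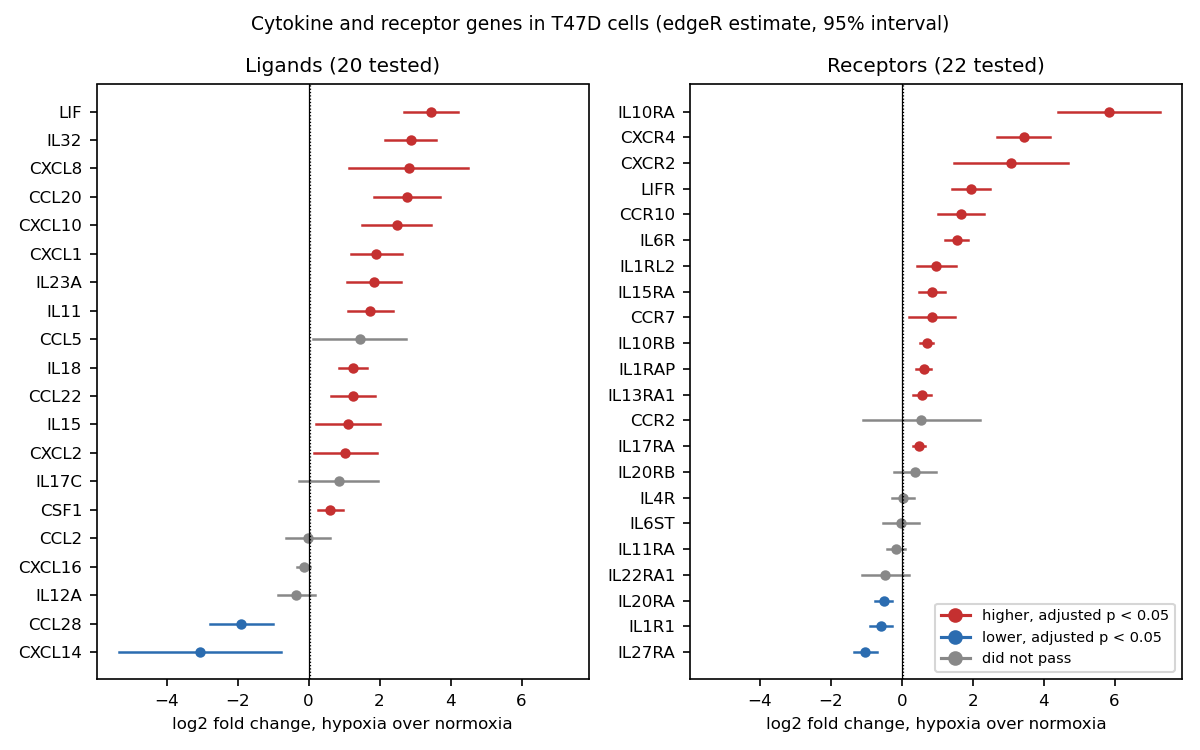
Log2-fold change of each tested member, hypoxia over normoxia (x axis), with its 95% confidence interval, ligands and receptors in separate panels, and points coloured by the call at an adjusted p of 0.05. Ligands run from -3.06 (CXCL14) to 3.44 (LIF), receptors fall no lower than -1.02 (IL27RA), and the point of IL10RA rests on 1 normoxia count.

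The neutrophil-attracting CXC chemokines, ligands of CXCR2, are encoded side by side, and 5 members (CXCL8, CXCL1, CXCL3, CXCL2 and CXCL10) lie between 74 and 77 Mb of chromosome 4. Promoter stretches of CXCL1, CXCL2, CXCL3, CXCL10 and a pair of other ligands are shown because most ligand promoters with an entry held the NF-κB motif, while the CXCL8 window held no match. In RefSeq promoters (GRCh38.p14 table, 250 bases before to 50 after the start) the κB motif was found on either strand in 9 of 13 ligands and 3 of 19 receptors. It was found in 5.72% of all 27305 promoters and in 6.53% of the 11350 promoters of genes tested. In the 30-base stretches below, in GRCh37 coordinates and on the strand of the gene, capitals mark the κB match. The stretches of CXCL1 and CXCL2 differ at 1 base, as do those of CXCL2 and CXCL3, and those of CXCL1 and CXCL3 at 2.
CXCL1, chr4:74735021-74735050, plus strand: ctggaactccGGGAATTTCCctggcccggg
CXCL2, chr4:74964971-74965000, minus strand: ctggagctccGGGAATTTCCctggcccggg
CXCL3, chr4:74904466-74904495, minus strand: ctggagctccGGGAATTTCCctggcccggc
CXCL10, chr4:76944808-76944837, minus strand: gaggagcagaGGGAAATTCCgtaacttgga
CCL20, chr2:228678469-228678498, plus strand: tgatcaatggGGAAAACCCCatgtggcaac
IL32, chr16:3115295-3115324, plus strand: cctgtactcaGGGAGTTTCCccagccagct
The 7 promoters with the motif among 19 members called higher (36.8%) stood beside 1 among 5 called lower and 4 among 8 not called or not tested (50%). A match is a description of letters and no evidence of binding. CCL2, CCL5, CCR10, CCR7, CSF1, CXCL16, IL15, IL17C, IL17RA, IL18 and LIF had no entry in the promoter table.

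Transcripts of these CXC chemokines were scarce. CXCL1, CXCL2 and CXCL8 were called higher in hypoxia and CXCL3 had no test. CXCL1 was at 0.177, 0.215 and 0.291 CPM in normoxia replicates 1 to 3 and at 0.791, 1.01 and 0.777 CPM in hypoxia, 3.76-fold higher (log2 1.91 ± 0.31 SE, adjusted p = 0.00131). The ranges did not overlap, and the highest normoxia library held 9 counts. CXCL2, at 0.203, 0.296 and 0.129 CPM in normoxia and 0.395, 0.574 and 0.372 CPM in hypoxia, was 2.05-fold higher with an adjusted p of 0.0477. Its groups were apart, but without normoxia replicate 1 or 3 or hypoxia replicate 1 or 2 the adjusted p lay between 0.0911 and 0.153. CXCL3, the member without a test, had 0, 5 and 4 counts in normoxia and 19, 34 and 19 in hypoxia. CXCL8, which encodes interleukin-8, had 1, 0 and 5 counts in normoxia and 17, 11 and 45 in hypoxia, 7.05-fold higher (log2 2.82 ± 0.73 SE, adjusted p = 0.0112). Without normoxia replicate 1 its adjusted p was 0.0515, and without normoxia replicate 3, which held most of its normoxia counts, its log2-fold change was 4.74. CXCL1 and CXCL2 share 4.82% and 4.77% of their 50-base stretches with each other, and CXCL2 and CXCL3 share 4.27% and 4.49%, so a small share of reads could belong to either gene.

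Other inflammatory chemokines changed unequally. CCL20, the ligand of CCR6 (GRCh37 chromosome 2, 228678558 to 228682280), was at 0.304, 0.833 and 0.420 CPM in normoxia and 3.51, 4.78 and 2.55 CPM in hypoxia, 6.87-fold higher (log2 2.78 ± 0.40 SE, adjusted p = 8.2e-04). CXCL10, an interferon-inducible ligand of CXCR3, was at 0.101, 0.161 and 0.0969 CPM in normoxia and 0.914, 0.738 and 0.470 CPM in hypoxia, 5.62-fold higher (log2 2.49 ± 0.42 SE, adjusted p = 0.00166). CCL22, a ligand of CCR4 that attracts regulatory T cells, was at 0.355, 0.430 and 0.323 CPM in normoxia and 0.766, 0.984 and 0.908 CPM in hypoxia, 2.38-fold higher (adjusted p = 0.00459). Every hypoxia library exceeded every normoxia library for all 3 genes. CXCL10 had 4, 6 and 3 counts in normoxia and passed the filter through its hypoxia libraries, so its separation is partly set by the filter.

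CCL5, which attracts T cells and monocytes, lay at 0.101, 0.376 and 0.162 CPM in normoxia and 0.519, 0.957 and 0.350 CPM in hypoxia. Hypoxia replicate 3 fell below normoxia replicate 2, so the groups overlapped, and the log2 value of 1.44 ± 0.57 SE did not pass (adjusted p = 0.0585). It was higher in hypoxia in all 3 same-numbered pairs, and with the replicate block its adjusted p was 0.00584. It also passed without normoxia replicate 2 (0.0259), without hypoxia replicate 3 (0.0254) and without both libraries numbered 3 (0.00921). CCL2, the monocyte chemoattractant, was at 1.55, 1.08 and 0.937 CPM in normoxia and 1.16, 1.42 and 1.01 CPM in hypoxia, with a log2 interval of -0.63 to 0.61. Its libraries were interleaved, and its adjusted p was 0.981.

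CXCL16, a chemokine made also as a membrane-bound form that binds CXCR6, was the most abundant ligand, at 28.0 RPKM in normoxia and 25.6 RPKM in hypoxia. It was at 65.5, 64.4 and 72.2 CPM in normoxia and 59.8, 60.9 and 63.7 CPM in hypoxia, so every hypoxia library lay below every normoxia library by a small margin. The log2 value of -0.13 did not pass (95% interval -0.32 to 0.05, adjusted p = 0.184), and its sign turned with upper-quartile scaling. Of its exon length 3.41% overlaps MED11, and whether counting used strand is not given in the sources used here.

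The 2 ligands that were lower are both homeostatic chemokines of epithelia. CCL28, the mucosal ligand of CCR10 (GRCh37 chromosome 5, 43376748 to 43412493), was at 37.3, 38.2 and 12.8 CPM in normoxia and 9.66, 6.89 and 7.27 CPM in hypoxia, 3.72-fold lower (log2 -1.90 ± 0.38 SE, adjusted p = 0.00373). Normoxia replicate 3 lay far below the other normoxia libraries and still above all of hypoxia. Without both libraries numbered 3 CCL28 had a log2 value of -2.18 with an adjusted p of 1.8e-09. CXCL14, at 12.0, 20.0 and 1.36 CPM in normoxia and 1.98, 2.08 and 0.241 CPM in hypoxia, was 8.36-fold lower (log2 -3.06 ± 0.99 SE, adjusted p = 0.0276). Both libraries numbered 3 were the lowest of their group, and normoxia replicate 3 fell below hypoxia replicates 1 and 2. Without both of them CXCL14 had a log2 value of -2.97 with an adjusted p of 3.2e-08. Without normoxia replicate 1 or 2 or hypoxia replicate 1 or 3 alone, the adjusted p lay between 0.0506 and 0.0854, and over all 6 single omissions the log2 value ran from -3.63 without normoxia replicate 3 to -2.32 without normoxia replicate 2. Of its exon length 5.83% overlaps SLC25A48.

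**Figure D3:**
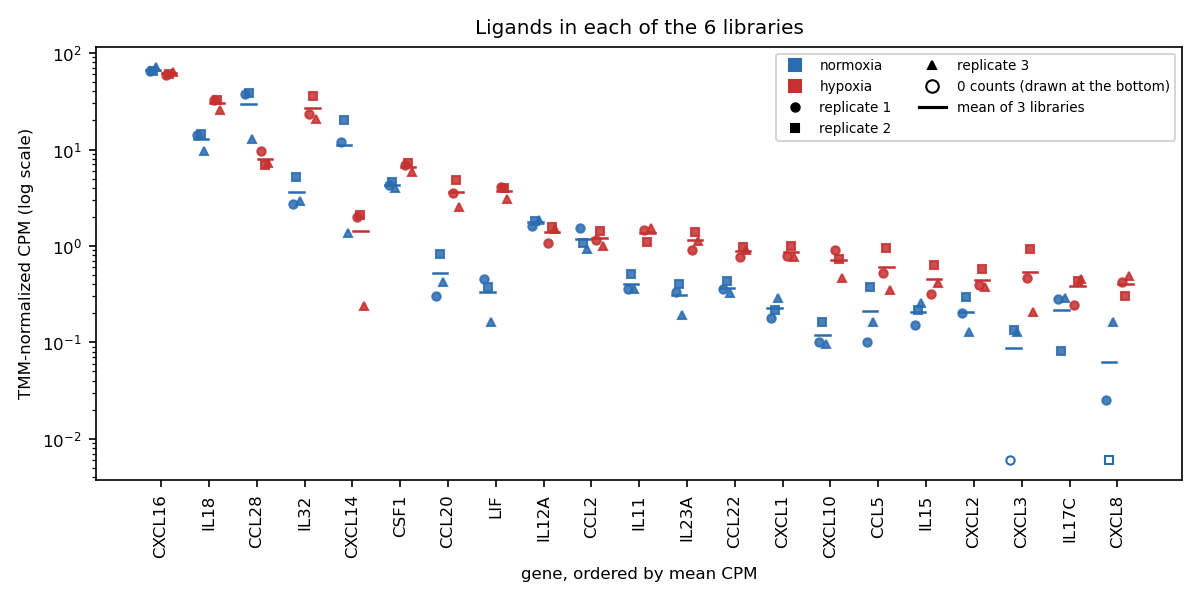
TMM-normalized CPM (log axis) of the 21 ligands in each of the 3 normoxia (blue) and 3 hypoxia (red) libraries, with the replicate shown by the symbol, the mean of 3 libraries by a bar and counts of 0 by open symbols at the bottom. LIF, CCL20 and IL32 sit higher in every hypoxia library than in any normoxia library, CCL28 sits lower, and the libraries numbered 3 sit lowest in each group for CXCL14.

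Ligands of the gp130 receptor family included the member with the largest rise among tested ligands. LIF, a cytokine that signals through LIFR and gp130 (GRCh37 chromosome 22, 30636436 to 30642840), was at 0.456, 0.376 and 0.162 CPM in normoxia and 4.08, 3.99 and 3.09 CPM in hypoxia. The groups were far apart, with a 10.9-fold difference (log2 3.44 ± 0.33 SE, adjusted p = 1.62e-04). IL11, which signals through IL11RA and gp130, was at 0.355, 0.511 and 0.355 CPM in normoxia and 1.46, 1.09 and 1.52 CPM in hypoxia, 3.33-fold higher (log2 1.74 ± 0.28 SE, adjusted p = 0.00125). A match to the core of the hypoxia response element, GCGTG, lay before the start of IL11 and is shown with others further on. IL6 itself was below the minimum, with 2 counts in normoxia and 4 in hypoxia, all of them in the libraries numbered 3.

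IL32 and IL18 were the most abundant of the ligands that rose. IL32, a proinflammatory cytokine, was at 2.74, 5.21 and 2.94 CPM in normoxia and 23.4, 36.3 and 20.6 CPM in hypoxia. All hypoxia libraries lay far above normoxia, by 7.33-fold (log2 2.87 ± 0.31 SE, adjusted p = 2.34e-04), and its mean level moved from 2.45 to 18.0 RPKM. IL18, a cytokine of the interleukin-1 family released by inflammasomes, was at 14.0, 14.4 and 9.76 CPM in normoxia and 32.6, 33 and 25.8 CPM in hypoxia. It was 2.38-fold higher (log2 1.25 ± 0.17 SE, adjusted p = 6.30e-04), with the lowest value of each group in replicate 3. IL23A, the p19 subunit of interleukin-23, was at 0.329, 0.403 and 0.194 CPM in normoxia and 0.914, 1.39 and 1.12 CPM in hypoxia, 3.61-fold higher (log2 1.85 ± 0.33 SE, adjusted p = 0.00207).

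Of the remaining cytokines CSF1 and IL15 rose, and IL12A and IL17C did not pass. CSF1, the macrophage colony-stimulating factor, was at 4.28, 4.65 and 4.04 CPM in normoxia and 6.89, 7.19 and 5.83 CPM in hypoxia, 1.53-fold higher (adjusted p = 0.00870) with groups apart. IL15, which sustains NK cells and memory T cells, was at 0.152, 0.215 and 0.258 CPM in normoxia and 0.321, 0.629 and 0.416 CPM in hypoxia, with an adjusted p of 0.0373. That call was lost without normoxia replicate 1 or 2 or hypoxia replicate 2 or 3, where the adjusted p lay between 0.0537 and 0.140. IL12A, the p35 subunit of interleukin-12, was lower in all 3 pairs without passing (log2 -0.35 ± 0.23 SE, adjusted p = 0.213), and 5.41% of its exon length overlaps IL12A-AS1. IL17C, an epithelial cytokine, did not pass either (log2 0.85 ± 0.48 SE, adjusted p = 0.159).

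Among the receptor chains of gp130 cytokines, LIFR and IL6R rose, IL27RA fell, and IL11RA and gp130 itself did not pass. IL6ST was by far the most abundant member, at 56.2 RPKM in normoxia and 55.5 RPKM in hypoxia. It was at 574, 580 and 380 CPM in normoxia and 583, 578 and 355 CPM in hypoxia, and both libraries numbered 3 were lower than the other four. The log2 value was -0.02 (95% interval -0.54 to 0.50, adjusted p = 0.950). Its sign turned with upper-quartile scaling, and without both libraries numbered 3 the value was 0.01. LIFR, the LIF-binding chain (GRCh37 chromosome 5, 38475065 to 38595507), was at 2.84, 2.28 and 1.45 CPM in normoxia and 8.99, 8.78 and 7.80 CPM in hypoxia. Every hypoxia library was above normoxia, by 3.85-fold (log2 1.95 ± 0.23 SE, adjusted p = 3.76e-04). IL6R, the interleukin-6-binding chain, was at 6.87, 8.09 and 5.98 CPM in normoxia and 18.7, 22.0 and 20.6 CPM in hypoxia, 2.92-fold higher (log2 1.55 ± 0.14 SE, adjusted p = 1.26e-04). IL11RA, the interleukin-11-binding chain, was at 11, 13.0 and 11.8 CPM in normoxia and 10.3, 10.3 and 11.2 CPM in hypoxia. Its ranges overlapped and it did not pass (log2 -0.17 ± 0.11 SE, adjusted p = 0.233), and 1.04% of its exon length overlaps CCL27. IL27RA, the interleukin-27-binding chain that pairs with gp130, was at 17.2, 17.6 and 18.9 CPM in normoxia and 7.73, 8.09 and 10.4 CPM in hypoxia. It was the receptor with the largest fall, 2.03-fold (log2 -1.02 ± 0.14 SE, adjusted p = 6.01e-04), with groups well apart.

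Of the chemokine receptors, CXCR4, CXCR2, CCR10 and CCR7 were called higher and CCR2 was not called. Matches to the hypoxia response element core (ACGTG or GCGTG, searched on both strands) are shown for 3 members that rose. CXCL14, which fell and held 3 such matches, is shown as well. Stretches are in GRCh37 coordinates and on the strand of the gene, with a single match in capitals in each. The CXCL14 stretch ends in another of its matches, left in lower case. Such a core was found in 9 of 32 members with a promoter entry (28.1%). It was found in 48.4% of all promoters and in 62.1% of the promoters of genes tested. By call it was found in 6 of 19 members called higher (31.6%), 3 of 5 called lower (60%) and 0 of 8 not called or not tested.
CXCR4, chr2:136875744-136875768, minus strand: cgcgctcggaGCGTGtttttataaa
CXCR2, chr2:218990654-218990678, plus strand: ggaagaaactGCGTGcgagttcaga
IL11, chr19:55881969-55881993, minus strand: gagcgcggcgGCGTGagccctgcaa
CXCL14, chr5:134914873-134914897, minus strand: atgtgtgtgtGCGTGtgcgcgcgtg
CXCR4, a receptor that guides leukocytes and metastasizing carcinoma cells, was at 0.177, 0.215 and 0.323 CPM in normoxia and 1.95, 2.49 and 3.18 CPM in hypoxia. The groups were far apart, with a 10.8-fold difference (log2 3.43 ± 0.33 SE, adjusted p = 1.57e-04). Its mean level moved from 0.102 to 1.09 RPKM. CXCR4 had 7, 8 and 10 counts in normoxia and passed the filter through its hypoxia libraries, so its separation is partly set by the filter. CXCR2, the receptor of CXCL1, CXCL2, CXCL3 and CXCL8, had 4, 0 and 1 counts in normoxia and 11, 13 and 51 in hypoxia, 8.49-fold higher (log2 3.08 ± 0.70 SE, adjusted p = 0.00627). Without normoxia replicate 1, which held 4 of its 5 normoxia counts, the log2 value was 4.56.

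CCR10, the receptor of CCL28, was at 0.760, 0.994 and 0.840 CPM in normoxia and 2.00, 2.54 and 3.64 CPM in hypoxia. It was 3.18-fold higher (log2 1.67 ± 0.28 SE, adjusted p = 0.00159), so ligand and receptor moved in opposite directions. CCR7, which guides cells to lymph nodes, had 13, 11 and 9 counts in normoxia and 19, 22 and 54 in hypoxia (log2 0.86 ± 0.28 SE, adjusted p = 0.0281). Leaving out any 1 of the 6 libraries gave an adjusted p between 0.0544 and 0.0948. CCR2, the receptor of CCL2, had 11, 2 and 9 counts in normoxia and 14, 2 and 40 in hypoxia and did not pass (log2 0.56 ± 0.71 SE, adjusted p = 0.525).

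Of the interleukin receptors outside the gp130 group, IL10RA alone was called higher by at least 1 on the log2 scale. IL10RA, the ligand-binding chain for interleukin-10, had 1, 0 and 0 counts in normoxia and 32, 24 and 56 in hypoxia. The ratio of pooled rates was 71.6, with a counting interval of 12.6 to 2851, and the adjusted p was 2.31e-04. Without normoxia replicate 1 all remaining normoxia counts were 0. Its partner IL10RB was far more abundant and rose 1.63-fold, from 22.2, 24.1 and 22.1 CPM to 36.7, 38.1 and 36.7 CPM (adjusted p = 2.9e-04). IL10RA is a leukocyte gene in most tissues, and the leukocyte markers above moved in the same direction, a relation that was not tested.

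Further chains rose by less than 1 on the log2 scale, with groups apart. IL13RA1, which binds interleukin-13, was at 40.8, 39.8 and 31.4 CPM in normoxia and 58.0, 53.0 and 54.8 CPM in hypoxia, 1.48-fold higher (adjusted p = 0.0035). IL17RA, the shared chain of interleukin-17 receptors, was at 36.7, 35.1 and 34.3 CPM in normoxia and 50.8, 48.9 and 48.2 CPM in hypoxia, 1.39-fold higher (adjusted p = 0.0012). IL15RA, which presents interleukin-15, rose by 0.86 on the log2 scale. In the interleukin-1 receptor family, the accessory chain IL1RAP and the interleukin-36 receptor IL1RL2 rose by 0.62 and 0.98, while the signalling receptor IL1R1 fell by 0.58 on the log2 scale (adjusted p = 0.0068).

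The interleukin-20 group went the other way or did not pass. IL20RA, a chain for interleukins 19, 20 and 24, was at 20.0, 21.3 and 19.5 CPM in normoxia and 15.1, 12.9 and 14.6 CPM in hypoxia, 1.43-fold lower (adjusted p = 0.0035) with groups apart. Its partner IL20RB was at 1.44, 1.32 and 1.39 CPM in normoxia and 2.15, 2.02 and 1.27 CPM in hypoxia. Hypoxia replicates 1 and 2 lay above all normoxia libraries and hypoxia replicate 3 below them, and the gene did not pass (log2 0.37 ± 0.26 SE, adjusted p = 0.238), but passed without hypoxia replicate 3 (0.0431) and without both libraries numbered 3 (0.0247). IL22RA1, the interleukin-22 receptor, was at 1.29, 1.5 and 1.13 CPM in normoxia and 0.667, 0.875 and 1.25 CPM in hypoxia. Hypoxia replicate 3 alone lay within the normoxia range, and the gene did not pass (log2 -0.47 ± 0.29 SE, adjusted p = 0.191) and passed in the same 2 settings, at 0.0452 and 0.0123. IL4R, the interleukin-4 chain, had a log2 value of 0.03 with a 95% interval of -0.28 to 0.35.

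**Figure D4:**
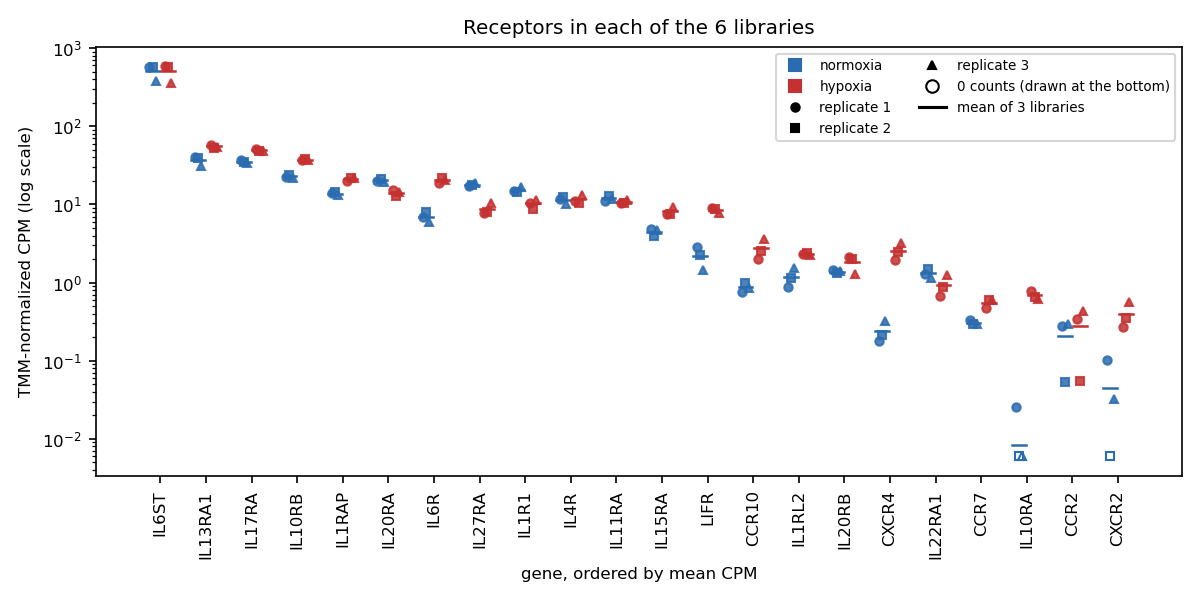
TMM-normalized CPM (log axis) of the 22 receptors in each of the 3 normoxia (blue) and 3 hypoxia (red) libraries, with the replicate shown by the symbol, the mean of 3 libraries by a bar and counts of 0 by open symbols at the bottom. LIFR, IL6R, CXCR4 and CCR10 sit higher in every hypoxia library than in any normoxia library, IL27RA and IL20RA sit lower, and IL6ST overlaps.

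Members were matched by textbook binding, in 36 pairs of ligand and receptor. Of 19 ligand members with a listed receptor, 10 had all chains of a receptor at a mean of at least 10 counts. LIF with LIFR and IL6ST, CSF1 with CSF1R, and CXCL1, CXCL2 and CXCL8 with CXCR2 were sets in which the ligand and a receptor chain were both called higher. Among these, CXCL1, CXCL2, CXCL8, CXCR2 and CSF1R had normoxia means under 10 counts and passed the filter through their hypoxia libraries. That they were higher together is therefore partly set by the filter. In IL11 with IL11RA and IL6ST the ligand alone rose. For CXCL16, CCL20, CCL22 and CXCL10 the receptors CXCR6, CCR6, CCR4 and CXCR3 were below the minimum, and CXCR3 had no count in any library. Conversely, several receptors with transcripts lacked a ligand at the minimum, among them IL6R, whose ligand IL6 is given above, and CCR7, whose ligands CCL19 and CCL21 had 0 counts. These are transcript levels within 1 cell line and do not measure secreted protein.

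Genes that work with the members were described from 6 lists. The shares among all genes were 30.4% higher and 29.1% lower, or 36.6% and 35.2% with the replicate block. Of 26 other cytokines and receptor chains of these families, 13 were tested, 10 were higher and 1 was lower, or 10 and 2 with the replicate block. CLCF1 and CTF1, ligands of the gp130 family, rose by 1.82 and 1.03 on the log2 scale, and their receptor chain CNTFR by 1.64. CSF1R, the receptor of CSF1, had no count in normoxia and 67 counts in hypoxia, at least 15.3-fold higher against a floor of 3 counts over the normoxia group. The receptor CSF3R rose by 3.72 from 0.0474 CPM, the interleukin-1 receptor antagonist IL1RN by 2.67 from 0.0748 CPM and IL17RD by 2.36 from 1.98 CPM. IL17RC, the partner of IL17RA, fell by 1.21 on the log2 scale, from 75.7 ± 7.3 to 32.6 ± 3.7 CPM (SD, n = 3, edgeR adjusted p = 1.45e-04).

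Of 25 genes of the interleukin-1 receptor and NF-κB arm, 13 were higher and 2 lower, with a median log2-fold change of 0.31, and with the replicate block 16 were higher and 5 lower. TNFAIP3 and TNIP1, which restrain NF-κB, rose by 2.57 and 1.33 on the log2 scale, the NF-κB subunit RELB by 1.97 and the kinase IRAK2 by 1.22. Of 11 JAK kinases and STAT factors 4 were higher and 2 lower, and STAT4 rose by 3.19 from 0.0556 CPM. Of 14 feedback inhibitors 4 were higher and 3 lower, a share of 28.6% higher that was near that of all genes, the block gave 4 higher and 5 lower, and PIAS2 rose by 1.21. Of 12 tested genes for receptor coupling and trafficking 2 were higher and 5 lower, with GNAI1 at 1.24, RGS16 at 1.03 and the arrestin ARRB1 at -1.39. In the list headed atypical and scavenging chemokine receptors, both tested genes, ACKR2 and PITPNM3, were higher, by 0.80 and 0.53. Without both libraries numbered 3 ACKR2 did not pass (edgeR adjusted p = 0.051). Over all 6 lists 35 of 77 tested genes were higher and 13 lower, and with the replicate block 40 were higher and 22 lower.

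**Figure D5:**
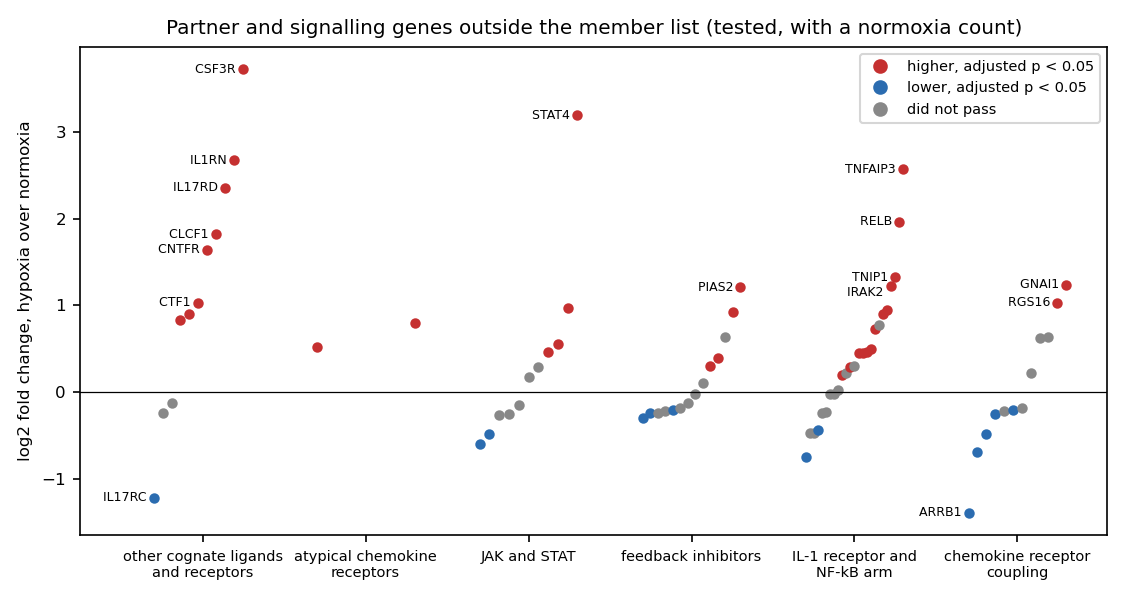
Log2-fold changes, hypoxia over normoxia (y axis), of tested genes of the 6 lists (x axis), one point per gene in order of its change and coloured by the call at an adjusted p of 0.05. Points run from -1.39 (ARRB1) to 3.72 (CSF3R), and CSF1R is left out of the plot because it had no normoxia count.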

How the data were processed

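Gene counts from RNA sequencing of 6 T47D libraries (3 normoxia, 3 hypoxia) were analysed. The submitters' notes and the paper's methods give stranded mRNA libraries, Skewer, FastQC 0.11.5, alignment to hg19 (GRCh37) with STAR 2.5.2a and counting per RefSeq gene with featureCounts 1.5.1. The deposited counts are raw counts per gene, 1 file per library. Strand settings and the handling of multi-mapping reads are not given in the sources used here. The labels give 0.5% O2 and a time for the hypoxia libraries only. The paper states other hypoxia conditions.

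Counts were tested with edgeR 4.0.16 (R 4.3.3, limma 3.58.1): TMM, filterByExpr (minimum count 10, total 15), quasi-likelihood test, condition as the only term, Benjamini-Hochberg adjustment at 0.05. CPM are TMM-normalized, and RPKM divide them by the exon length in the files. Confidence intervals are 95%. Leave-one-out fits, DESeq2 1.42.0, edgeR's exact test, other scalings, filters and a replicate block were alternatives. Same-numbered libraries deviated together from their group means (correlations across genes of 0.338, 0.422 and 0.575). They were therefore compared as pairs, and the replicate block was fitted as an alternative. The main fit leaves this pairing out, so the adjusted p-values and calls given without mention of the block do not use it. The labels do not say what a number marks.

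Members and gene lists were chosen with earlier results of these data known. Members past the threshold by at least 1 on the log2 scale, the most abundant 5 ligands and receptors, and members whose call changed with the block or without the libraries numbered 3 were to be given in every library, and further members were given so after their values were seen. Of list genes, those past the threshold by at least 1 were named, and ACKR2 and PITPNM3 were named after their values were seen. A further 2 genes are not analysed here, and some items of the lists are not reported or plotted here. Promoters were placed on GRCh37 by exact match. Plots used Python 3.11.15 and matplotlib 3.10.9.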

Additional observations from a re-analysis of the deposited data

How the results depend on the processing

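Of 31 members called, 26 passed under every alternative in which they could be fitted, the exceptions being CXCL14, IL15, CXCL2, CXCL8 and CCR7. Of 11 not called, 8 passed under none, the exceptions being CCL5, IL20RB and IL22RA1. DESeq2 called 24 members higher and 5 lower, and leaving out 1 library gave 22 to 27 higher and 4 to 5 lower. With a mean of at least 100 counts, 13 members, 5 ligands and 8 receptors were higher, since fewer genes were tested. Leaving out 1 library gave 1 to 2 ligands lower. The difference in medians between ligands and receptors was 0.41 at that count minimum, 0.80 with hypoxia replicate 3 thinned to the depth of hypoxia replicate 2, 0.76 without both libraries numbered 3, and 0.43 to 0.76 without 1 library. The cause was not tested. List genes lower numbered 7 with upper-quartile scaling, 8 at 100 counts, 22 with the replicate block, 22 without both libraries numbered 3 and 7 to 20 without 1 library. The block changed the call of CCL5 and of no other member. Upper-quartile scaling raised the median of all genes by 0.16 and the share of calls that were higher from 51.1% to 64.5%, and turned the signs of CXCL16, CCL2 and IL6ST, none of them called. Members under 10 counts in normoxia are limited by depth.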

Other observations

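The 88 matching symbols below the count minimum, 60 ligands and 28 receptors, together held 46, 50 and 57 counts in normoxia replicates 1 to 3 and 110, 100 and 298 counts in hypoxia, and 60 of them had a mean below 1 count. IL34, a second ligand of CSF1R, had 0, 2 and 0 counts in normoxia and 9, 8 and 30 in hypoxia, so every hypoxia library held more counts than any normoxia library. IL17D had 4, 9 and 6 counts in normoxia and 11, 7 and 22 in hypoxia, and its counts overlapped. Both genes were given after their values were seen and have no test.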
